A study of Mus musculus with 16 samples.

Results

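The mRNAs described here encode the inhibitors of NF-κB and their closest relatives: the IκB proteins Nfkbia, Nfkbib and Nfkbie, the nuclear IκB family members Nfkbiz, Nfkbid and Bcl3, the A20 deubiquitinase Tnfaip3 with its binding partners Tnip1 and Tnip3, and the deubiquitinase Cyld. They were chosen by gene symbol, and all 10 of the 10 were present among 14925 genes with a symbol. Their 25 annotated 3′-UTR regions belong to 30622 in all, and each gene is represented by its most-read region. The libraries came from bone marrow-derived macrophages (BMDMs) of adult mice, strain C57BL/6J 129, differentiated with L-cell conditioned medium as the source of M-CSF. WT cells and Cpeb4-/- cells (KO, which lack the RNA-binding protein CPEB4 in every cell) were left untreated or given LPS at 10 ng/ml for 9 h. From each of these 4 conditions, RNA was sequenced from the whole lysate (Input, rRNA depleted) and from the precipitate of formaldehyde-crosslinked lysate with an anti-CPEB4 antibody (RNA immunoprecipitation, RIP), so that the KO RIP is the RNA recovered when the antigen is missing.

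Each of the 8 groups held 1 library, run on 2 flow cell lanes whose reads are summed in the files. The sample titles carried 1 number per genotype, 76 for WT and 73 for KO. The titles do not say what it names, and it was read here as 1 culture or animal. No replicate error exists for any value below. Intervals are 95% intervals of counting error only, and ratios compare libraries, not genotypes or treatments. The libraries held between 467696 and 2492300 reads in 3′-UTRs of genes with a symbol, the KO RIPs being the shallowest. These reads were 46.4% to 51.1% of the authors' library totals in the Inputs, 48.9% and 70.1% in the WT RIPs, and 27.3% and 31.8% in the KO RIPs. Levels are given as the share of a library's 3′-UTR reads that fell on the gene, times 1e6 (CPM), and per kilobase of region where genes are compared with each other. In bulk RNA, fewer cells expressing a gene and less of its RNA per cell cannot be told apart. Cpeb4 itself had 130 and 136 CPM in the untreated and LPS WT Inputs and 52.0 and 52.6 CPM in the KO Inputs, so its 3′-UTR was lower but still read in the libraries labelled KO. Whether that region lies in the deleted part of the gene is not given in the sources used here. The 8 macrophage markers together reached 2530 to 3558 CPM in the Inputs, and no list of neutrophil, T cell, B cell, dendritic cell, fibroblast or erythroid markers exceeded 1.08 CPM there, although only 1 of the 5 neutrophil markers was in the files.

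As background, NF-κB dimers are held in the cytoplasm by IκB proteins until signalling from Toll-like receptors leads to IκB phosphorylation, ubiquitination and degradation. The freed dimers then switch on their own inhibitors. Nfkbia and Tnfaip3 are classical genes of this feedback, and A20, with its ABIN partners encoded by Tnip1 and Tnip3, edits ubiquitin chains upstream of the IKK kinase. CPEB4 binds cytoplasmic polyadenylation elements (CPEs) in 3′-UTRs and controls poly(A) tail length, translation and stability of the mRNAs that carry them.

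The 3′-UTRs of the 10 genes differed widely in the elements that CPEB4 could bind. A CPE was searched for as TTTTAT or TTTTAAT or TTTTAAAT or TTTTACT or TTTTCAT or TTTTAAGT or TTTTGT on the transcribed strand of mm10, and 73.4% of all genes held at least 1. Cyld had 23 in 4932 bases, Tnip3 15 in 2932 bases, Nfkbiz 6 in 1355 bases, Nfkbia 4 in 511 bases, and Tnfaip3 3 in 1821 bases. Nfkbie and Bcl3 had 2 each, in 1102 and 410 bases. Tnip1, Nfkbid and the 71-base region of Nfkbib had none. Genes whose region was within 10% of the same length had a median of 5 CPEs for Tnfaip3, 1 for Nfkbia, 3 for Nfkbiz, 8 for Tnip3, 14 for Cyld and 1 for Bcl3, and of 2 for Nfkbie, 2 for Tnip1, 1 for Nfkbid and 0 for Nfkbib. Per kilobase, Nfkbia was the densest, with 7.83 CPEs. Each of the 10 regions lay within 1 exon, and no exon of another annotated gene overlapped any of them.

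The windows below are shown because they hold the CPEs of the genes on which the RIP results turn. Each is 30 bases of mm10, written 5′ to 3′ on the transcribed strand with the CPE in capitals. The gene, the position and the sequence are given in that order.
Bcl3, chr7:19808472-19808501, minus strand: gggtcagatttcTTTTGTaataaactattt
Bcl3, chr7:19808462-19808491, minus strand: tcttttgtaataaactatTTTTGTatcata
Nfkbia, chr12:55489455-55489484, minus strand: gtatatgttgtaTTTTGTtggtaattattt
Nfkbia, chr12:55489611-55489640, minus strand: gaaaggaccacgTTTTATttattgtgcttt
Nfkbiz, chr16:55811393-55811422, minus strand: ttcatgcatagTTTTAAATgaacattaata
Tnfaip3, chr10:19001073-19001102, minus strand: aatagtctattaTTTTATgtctattgattt
Nfkbie, chr17:45562484-45562513, plus strand: cctcttttcattTTTTATgttgtgatggga
Both CPEs of Bcl3 are of the TTTTGT form. They stand on either side of the only polyadenylation hexamer of that region, AATAAA, leaving 22 and 6 bases between the element and the end of the annotated 3′-UTR. The Nfkbiz element shown ends 29 bases before the end of the region. The CPE of Nfkbie printed here lies 668 bases from the end, far from both of that gene's hexamers. The Tnfaip3 element lies 175 bases from the end.

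The AU-rich pentamer AUUUA, which recruits mRNA decay factors such as TTP, was counted in the same regions and occurred in 65.2% of all genes. Cyld held 12, Tnfaip3 5, Nfkbiz 4, Tnip3 3, Nfkbia 2 and Nfkbid 1. Genes of like length had a median of 8 for Cyld, 3 for Tnfaip3, 2 for Nfkbiz, 5 for Tnip3, 0 for Nfkbia and 1 for Nfkbid, so Tnip3 held fewer than its median. Bcl3, Nfkbie, Tnip1 and Nfkbib held none, where the medians were 0, 1, 1 and 0, so Bcl3 and Nfkbie carried CPEs without the pentamer. Tnip1 held neither motif and no hexamer in its 752 bases, which were 54.1% G and C.

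**Figure D1:**
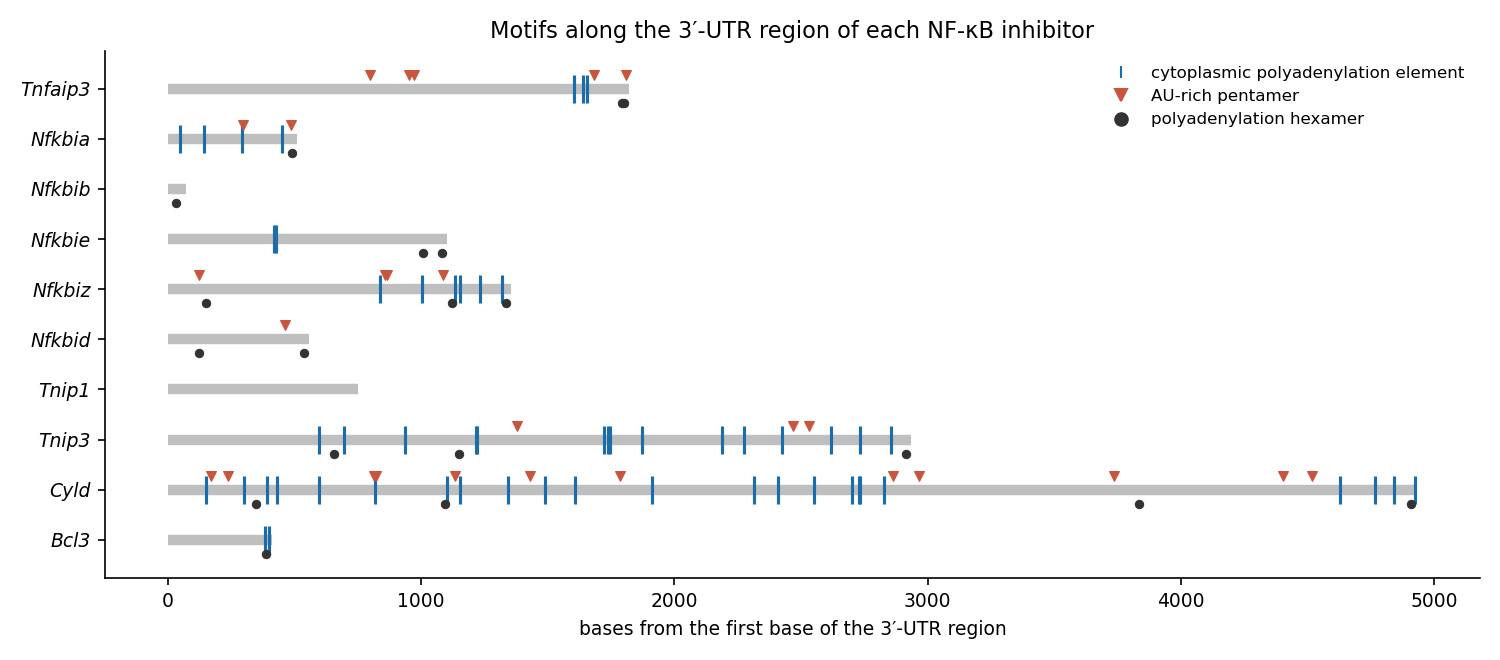
Position of motifs along the 3′-UTR region of each of the 10 genes, in bases from its first base; grey bars are the regions, blue ticks CPEs, red triangles AUUUA pentamers and black circles polyadenylation hexamers. The CPEs of Tnfaip3 and Bcl3 lie near the end of the region, those of Cyld and Tnip3 are spread along it, and Tnip1 has no mark.

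At the other end of these genes, the promoters were searched for the κB motif that NF-κB dimers bind, on both strands of the 300 bases from 250 before to 50 after the gene start in the RefSeq table of GRCm38.p6. Of the 10 genes 9 had a promoter in the table, and 8 of these 9 held a match. Among all RefSeq promoters searched, 8.46% of 32851 promoters and 9.55% of 27025 genes held one. Matches that covered the same bases on both strands were counted as 1, and overlapping matches with other starts were counted apart. A match is a description of the letters only. These 5 windows are shown, with the match in capitals, because the first 4 belong to genes called higher after LPS and the last, Cyld, to a gene that was not.
Nfkbia, chr12:55492657-55492686, minus strand: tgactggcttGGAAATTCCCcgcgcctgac
Tnfaip3, chr10:19015403-19015432, minus strand: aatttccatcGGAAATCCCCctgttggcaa
Tnip1, chr11:54962978-54963007, minus strand: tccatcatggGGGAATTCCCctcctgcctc
Tnip3, chr6:65590334-65590363, plus strand: gagacatcctGGGAAATCCCagttacatgg
Cyld, chr8:88696863-88696892, plus strand: ttgaccgagcGGAAAGTCCCttcagccagc
The match starts 29 bases before the gene start in Nfkbia, 12 in Tnfaip3, 57 in Tnip1, 54 in Tnip3 and 155 in Cyld. Nfkbib was the gene with a promoter and no match in this window, and Nfkbiz was not listed.

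The first comparison asked how the Input levels changed with LPS in each genotype. In both genotypes 7 of the 9 genes with at least 10 reads were more than 2-fold higher after LPS: Tnfaip3, Nfkbia, Nfkbie, Nfkbiz, Tnip1, Tnip3 and Bcl3. Nfkbid stayed within the limit in both. Cyld was called lower in KO and not in WT, but the interval of the difference held 0. Over all genes tested, 14.8% were called higher and 17.5% lower in WT, and 13.5% higher and 21.2% lower in KO. The median log2 change was 2.36 over the 9 genes against -0.08 over 8163 genes in WT, and 2.57 against -0.18 over 8250 genes in KO.

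Among the cytoplasmic IκBs, Nfkbia, which encodes IκBα, had 39.8 and 262 CPM in the untreated and LPS WT Inputs and 37.7 and 264 CPM in the KO Inputs. The 2 genotypes were nearly the same at both times. The log2 change was 2.68 (95% counting interval 2.21 to 3.16) in WT and 2.78 (2.36 to 3.20) in KO. Nfkbie, which encodes IκBε, had 44.1 and 225 CPM in the WT Inputs and 21.9 and 188 CPM in the KO Inputs. The untreated KO Input was the lowest of the 4. Its log2 change was 2.32 (1.86 to 2.77) in WT and 3.06 (2.52 to 3.61) in KO. Nfkbib, which encodes IκBβ, had 0 and 8 reads in the WT Inputs and 1 and 2 reads in the KO Inputs, so its LPS change was not given. The 0 of 929054 reads allows up to 3 reads at this depth. Its other annotated region of 758 bases gave 10 reads in the LPS WT Input.

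Of the nuclear IκBs, Nfkbiz, which encodes IκBζ, a cofactor for secondary LPS-response genes, had 4.31 and 41.6 CPM in the WT Inputs and 9.05 and 50.6 CPM in the KO Inputs. Only 4 reads stood behind the untreated WT value. The log2 change was 2.97 (1.67 to 4.27) in WT and 2.39 (1.54 to 3.23) in KO. Bcl3, a partner of p50 and p52 homodimers, had 39.8 and 90.7 CPM in the WT Inputs and 42.2 and 113 CPM in the KO Inputs. Its log2 change, 1.16 (0.65 to 1.66) in WT and 1.4 (0.97 to 1.84) in KO, was the smallest of the 7. Nfkbid, which encodes IκBNS, had 28.0 and 24.2 CPM in the WT Inputs and 25.6 and 20.0 CPM in the KO Inputs. The counting intervals of all 4 values overlapped.

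Of the A20 group, Tnfaip3 had 44.1 and 392 CPM in the WT Inputs and 42.2 and 337 CPM in the KO Inputs. It made the largest log2 change of the 9 genes in WT, 3.12 (2.67 to 3.57), and 2.97 (2.58 to 3.37) in KO. Tnip1 (ABIN1), which joins A20 to ubiquitin chains, had 51.7 and 270 CPM in the WT Inputs and 41.5 and 250 CPM in the KO Inputs. Tnip3 (ABIN3) had 40.9 and 223 CPM in the WT Inputs and 43.0 and 306 CPM in the KO Inputs. Both were several times higher after LPS, with log2 changes of 2.36 and 2.41 in WT and 2.57 and 2.81 in KO. Cyld, which removes K63-linked and linear ubiquitin chains, had 73.2 and 40.6 CPM in the WT Inputs and 78.4 and 33.3 CPM in the KO Inputs. It moved the opposite way in both genotypes, with log2 changes of -0.85 (-1.32 to -0.39) in WT and -1.22 (-1.70 to -0.74) in KO.

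**Figure D2:**
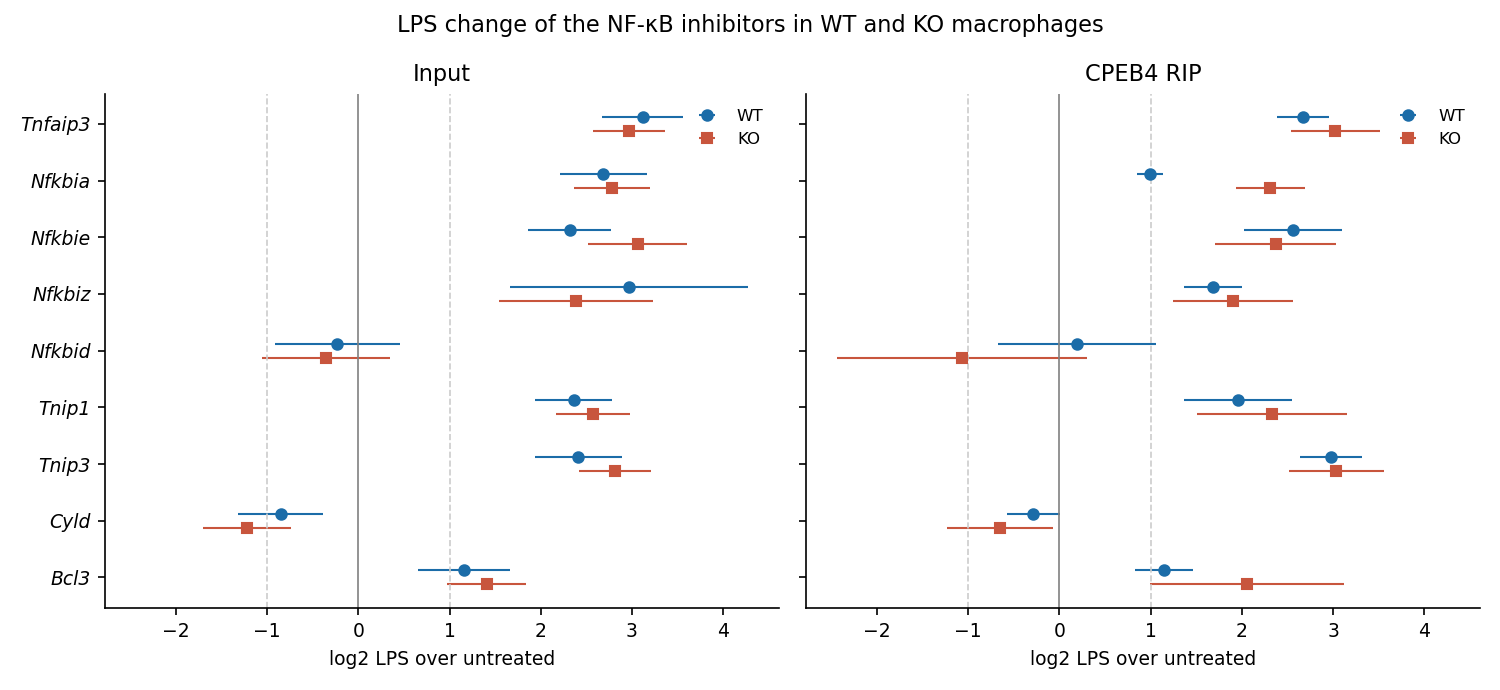
Log2 ratio of LPS over untreated for the 9 genes with enough reads, in the Inputs (left) and the CPEB4 RIPs (right); blue circles are WT, red squares KO, bars are 95% counting intervals of 1 library against 1, and dashed lines mark 2-fold. In the Inputs 7 genes sit to the right of 1 in both genotypes and Cyld sits left of 0, and in the RIPs the WT and KO intervals of Nfkbia do not overlap.

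Per kilobase of 3′-UTR, the order of the genes changed with LPS. In the untreated WT Input, Bcl3 was highest at 97.1 CPM per kilobase, then Nfkbia at 77.9 and Tnip1 at 68.7, and the intervals of neighbours overlapped down to Tnip3 at 14.0. After LPS, Nfkbia led at 514 CPM per kilobase, clear of Tnip1 at 360, which was clear of Bcl3 at 221. Bcl3, Tnfaip3 at 215 and Nfkbie at 204 were not separated by their counting intervals. Cyld was the lowest at 8.23. The KO Inputs gave the same first 3 genes after LPS, Nfkbia at 516, Tnip1 at 333 and Bcl3 at 276, the intervals of the last pair overlapping.

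**Figure D3:**
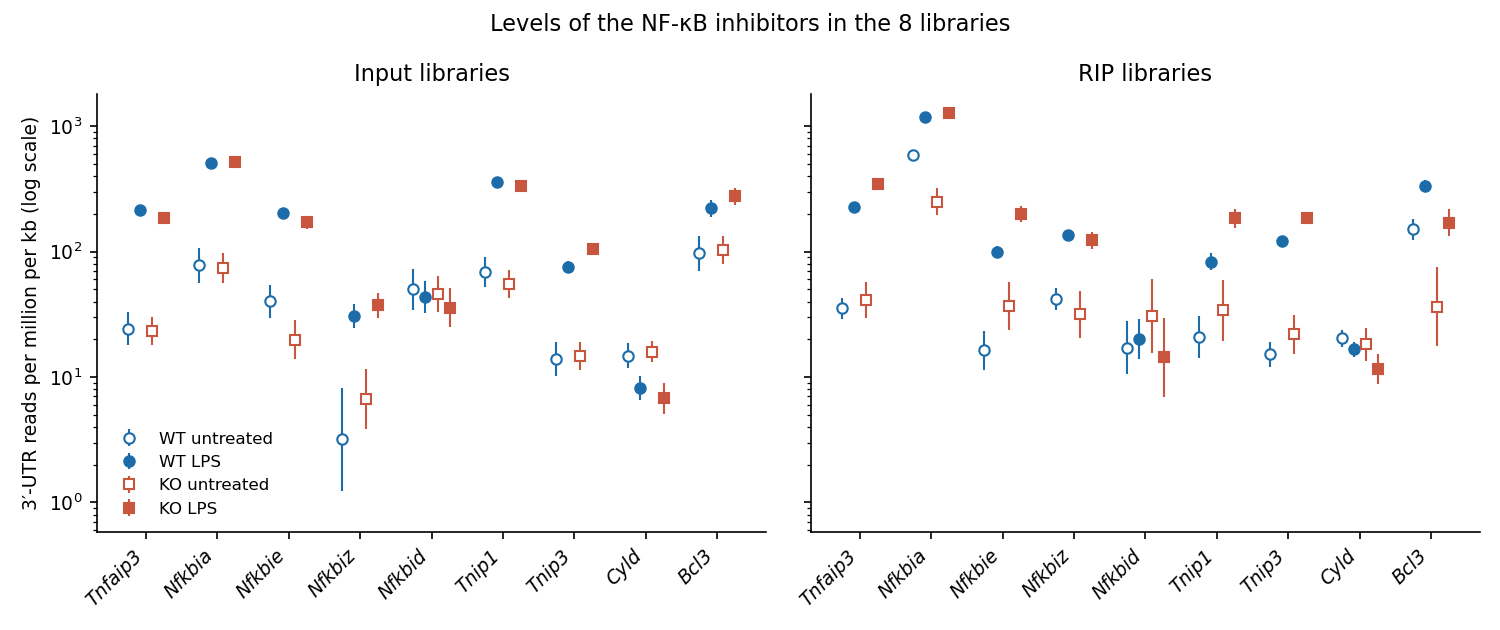
CPM per kilobase of 3′-UTR, on a log scale, of 9 genes in the 4 Input libraries (left) and the 4 RIP libraries (right); open symbols are untreated, filled symbols LPS, blue circles WT, red squares KO, and bars 95% Wilson intervals of the read count. Nfkbia is the highest gene in every library given LPS, reaching 514 and 516 in the Inputs and 1175 and 1266 in the RIPs, and Bcl3 in the KO RIPs lies below Bcl3 in the WT RIP of the same treatment.

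Other genes of the pathway were counted in the same way. Of 5 NF-κB subunit genes, 4 were higher after LPS in the WT Input and 3 in the KO Input, led by Nfkb2 with log2 changes of 3.67 and 2.94, while Rela was at 0.32 and 0.03. Of 3 IKK genes, Ikbkb was higher in WT (1.58, 0.99 to 2.17) and at 0.91 (0.41 to 1.42) in KO. Of 12 upstream adaptors and kinases, 4 were higher in each genotype: Myd88, Irak2, Traf2 and Irak3. Irak3, itself a brake on the receptor complex, made the largest change at 2.93 and 3.14. Tab3 was the gene lower in KO, at -1.06. Of 12 genes of the ubiquitin machinery and A20 partners, 3 were higher in each genotype: Rnf31, the catalytic subunit of the linear ubiquitin ligase, Birc3, and Tax1bp1, an A20 adaptor. Over all genes, 14.8% were higher and 17.5% lower in WT, and 13.5% higher and 21.2% lower in KO. The stimulation check of 6 cytokine and enzyme genes had 6 of 6 higher in WT and 5 of 5 with enough reads higher in KO.

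Over the 8 libraries, Acod1, Cmpk2 and Ifit1 had the pattern most like Tnfaip3, with a Pearson r of log2(CPM + 1) of 0.992, 0.992 and 0.990 among 5166 genes with at least 200 reads. For Nfkbia these were Ccl7, Pid1 and Ifi204 (0.990, 0.985 and 0.985), and for Nfkbiz they were Fndc3a, Srsf2 and Tiparp (0.991, 0.991 and 0.988). The 8 points come from libraries with 1 title number per genotype.

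WT and KO Inputs were then set against each other, to ask whether the steady levels of the inhibitors differed without CPEB4. In untreated cells 0 of 9 genes passed 2-fold in either direction, where 7.23% of 7845 genes did. The nearest was Nfkbie, with a log2 WT over KO of 0.999 (0.32 to 1.67) just under the limit, and 4 of the alternative settings placed it over. After LPS the gene called was Nfkbib, at 1.25 (-0.64 to 3.13) on 8 against 2 reads, where 5.64% of 8151 genes passed. Tnfaip3 was at 0.22 (0.05 to 0.38), Nfkbia at -0.0068 (-0.20 to 0.18), Tnip3 at -0.46 (-0.65 to -0.27) and Bcl3 at -0.32 (-0.62 to -0.02). Tnip3 was thus 1.37-fold higher in the KO library, a difference beyond counting error but with no measure of the spread between cultures. The LPS change itself differed between the genotypes past 2-fold for 0 of 9 genes, against 13.7% of 7867 genes. That of Nfkbie was smaller in WT by a log2 difference of -0.75 (-1.46 to -0.04), and the intervals of the other 8 genes held 0.

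The RIPs were compared with their own Inputs, to ask which of these mRNAs were recovered above their share of the lysate. In WT, Nfkbia and Nfkbiz stood out in untreated cells, and Tnip1, Nfkbie and Nfkbid were on the low side. The same 2 genes were also above 2-fold in the KO RIPs, which lack CPEB4, on the scale of 3′-UTR reads. With library totals Nfkbiz stayed above it in KO, at 1.43 and 1.02, while Nfkbia was at 0.995 (0.46 to 1.53) untreated and 0.61 (0.43 to 0.80) after LPS. In untreated WT, 2 of 9 genes were higher and 3 lower than 2-fold, against 25.5% and 21.5% of 8359 genes. In LPS WT, 3 of 10 were higher and 3 lower, against 23.5% and 26.9% of 8767. In untreated KO, 2 of 9 were higher and 1 lower, against 18.2% and 12.0% of 7708, and in LPS KO 3 of 10 were higher and 1 lower, against 17.2% and 12.0% of 7861. Library totals move every log2 RIP over Input by 0.06 untreated and 0.51 after LPS in WT, and by -0.77 and -0.68 in KO. The counts then become 5 higher and 1 lower in LPS WT, 1 higher and 3 lower in untreated KO, and 2 higher and 3 lower in LPS KO, and remain 2 and 3 in untreated WT. TMM gave 3 higher and 1 lower in LPS WT.

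Nfkbia had 301 and 601 CPM in the untreated and LPS WT RIPs and 128 and 647 CPM in the KO RIPs. The untreated WT RIP was the library that stood above its KO counterpart. Its log2 RIP over Input in WT was 2.88 (2.41 to 3.36) untreated, above 96.9% of the genes tested, and 1.19 (1.05 to 1.34) after LPS, above 80.8%. In KO it was 1.76 (1.23 to 2.30) and 1.29 (1.11 to 1.48). The change from untreated to LPS was -1.69 (-2.19 to -1.19) in WT and -0.47 (-1.03 to 0.10) in KO. The authors' peak caller gave the Nfkbia region a score of 711 in the untreated WT RIP, 133 after LPS, 65.6 in the untreated KO RIP and 0, meaning no peak, in the LPS KO RIP. Here and below, peak scores were not adjusted for depth, and the KO RIPs were the shallowest libraries.

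Nfkbiz had 56.4 and 183 CPM in the WT RIPs and 42.8 and 166 CPM in the KO RIPs, so each RIP pair was close. Its log2 RIP over Input was 3.41 (2.11 to 4.70) and 2.12 (1.78 to 2.47) in WT and 2.2 (1.2 to 3.19) and 1.71 (1.31 to 2.11) in KO. The peak score was 88.7 in untreated WT, 998 in LPS WT, 0 in untreated KO and 62.4 in LPS KO. Cyld, with the most CPEs, had 100 and 82.3 CPM in the WT RIPs and 89.8 and 57.4 CPM in the KO RIPs. It reached 1.01 (0.63 to 1.38) over Input in LPS WT and 0.79 (0.23 to 1.35) in LPS KO, with peak scores of 106 and 403 in the WT RIPs and 0 in both KO RIPs.

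Tnip1, with no CPE, was the lowest of the 10 in the LPS WT RIP over Input. It had 15.6 and 62.6 CPM in the WT RIPs and 25.7 and 139 CPM in the KO RIPs, both WT values being below the KO value of the same treatment. The log2 RIP over Input was -1.70 and -2.10 in WT and -0.60 and -0.84 in KO. Nfkbie, with 18.0 and 110 CPM in the WT RIPs and 40.6 and 220 CPM in the KO RIPs, was at -1.28 and -1.03 in WT and 0.92 and 0.23 in KO. Nfkbid was at -1.51 and -1.09 in WT, with -0.46 and -1.17 in KO on 8 and 7 RIP reads. No peak was listed in any RIP for Tnip1, Nfkbie, Nfkbid, Tnip3 or Nfkbib. Of all genes, 6.83% had a peak in the untreated WT RIP, 15.4% in the LPS WT RIP, and 1.03% and 1.17% in the KO RIPs, against 3, 5, 1 and 1 of the 10.

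**Figure D4:**
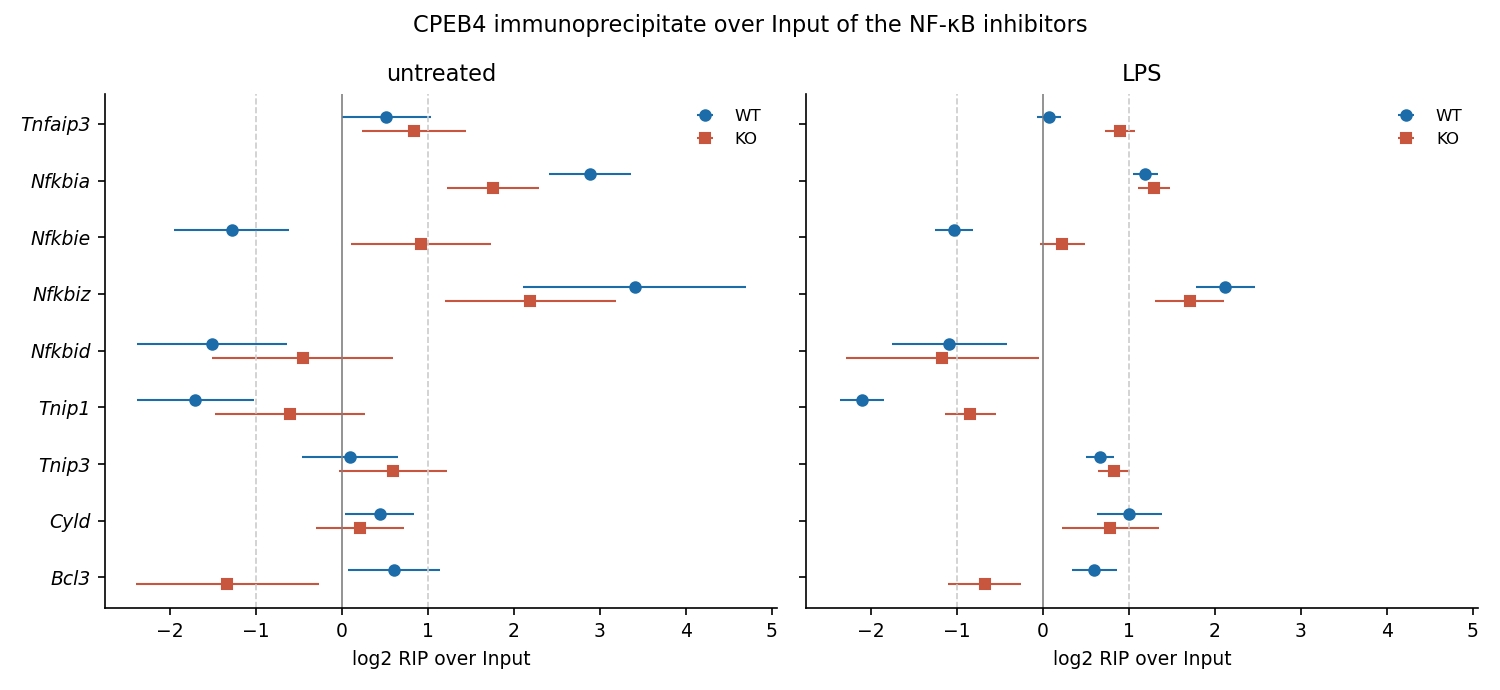
Log2 ratio of CPEB4 RIP over Input for 9 genes, in untreated (left) and LPS-treated (right) macrophages; blue circles are WT, red squares KO, bars are 95% counting intervals and dashed lines mark 2-fold. Nfkbiz and Nfkbia lie to the right of 1 in all 4 pairs, and Bcl3 is the gene whose WT value lies right of 0 and whose KO value lies left of it at both times.

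RIP over Input went with base composition. Across the 10 genes with a value after LPS, the Spearman correlation of log2 RIP over Input with the G and C content of the 3′-UTR was -0.88 in KO and -0.56 in WT, where all genes gave -0.61 over 7861 and -0.75 over 8767. With CPEs per kilobase it was 0.23 in KO and 0.78 in WT, and no value over all genes was computed for that measure. The points share the 2 libraries of each ratio, and genes are not independent replicates. The 2 genes recovered best in WT, Nfkbiz and Nfkbia, had 35.9% and 37.8% G and C, where the median gene had 45.4%. In KO after LPS, Nfkbib, with 33.8%, lay above both at 2.37 (0.49 to 4.26), on 8 RIP reads against 2 Input reads. Bcl3 had the highest content of the 10, 54.4%, and was at 0.61 (0.07 to 1.15) and 0.60 (0.33 to 0.86) over Input in WT but at -1.33 (-2.40 to -0.26) and -0.68 (-1.10 to -0.26) in KO. The part of composition in any of these ratios was not tested.

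The comparison of WT with KO RIPs asked which mRNAs depended on CPEB4 for their recovery. Of the 9 genes measured at both times Bcl3 had the highest ratio at both, Nfkbia was more than 2-fold over KO in untreated cells and not after LPS, and Nfkbie and Tnip1 were the lowest after LPS. The signs depend on the scaling. Scaled to whole-library totals, of which the KO RIPs held a smaller share in 3′-UTRs, every log2 WT over KO moves up by 0.84 in untreated cells and 1.14 after LPS, taking the median of all genes from -0.10 to 0.75 and from -0.04 to 1.10. The order of the genes does not move with the scaling.

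In untreated cells Nfkbia and Bcl3 were higher and Nfkbie lower, 2 and 1 of 9, against 9.60% and 14.2% of 8064 genes. After LPS 0 of 10 were higher and 3 lower (Nfkbib, Nfkbie and Tnip1), against 9.71% and 17.5% of 8310. Scaled to library totals this became 5 higher and 0 lower, and the untreated split 3 and 0, while TMM gave 1 and 1 after LPS. With the ratio corrected for the Inputs, 3 of 9 were higher and 3 lower in untreated cells, against 14.7% and 17.4% of 7201, and 1 of 10 was higher and 3 lower after LPS, against 11.6% and 20.9% of 7575. Library totals made the untreated split 4 higher and 1 lower and the LPS split 6 and 1, and TMM made them 3 and 1, and 1 and 1.

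Bcl3 had 61.8 and 138 CPM in the untreated and LPS WT RIPs against 15 and 70.0 CPM in the KO RIPs, the untreated KO value resting on 7 reads. Both WT values exceeded the KO value of the same treatment. The log2 WT over KO RIP was 1.87 (0.83 to 2.91) untreated and 0.96 (0.57 to 1.35) after LPS, above 98.3% and 89.2% of the genes tested, and the input-corrected ratio was 1.94 (0.74 to 3.13) and 1.28 (0.78 to 1.77). It was the largest of the 9 genes at both times. With library totals, which raise the ratio of every gene, it was 2.77 and 2.47. Its region is the one with the 2 TTTTGT elements around the hexamer printed above. The authors' own motif counts gave that region 0 consensus and 0 nonconsensus CPEs and no predicted CPE control. Any part of the TTTTGT elements in the ratio was not tested. Bcl3 had a peak score of 77.5 in the LPS WT RIP and 0 in the other 3.

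Nfkbia was at 1.21 (0.83 to 1.59) in untreated cells, above 93.6% of genes, and at -0.11 (-0.25 to 0.03) after LPS, above 47.4%. With library totals these were 2.05 and 1.03. The difference between the 2 treatments, -1.32 (-1.73 to -0.91), lay above that of only 4.4% of genes. The log2 change of its RIPs with LPS was 0.99 (0.85 to 1.14) in WT and 2.31 (1.93 to 2.69) in KO, while that of its Inputs was 2.68 and 2.78.

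Tnfaip3 had 64.2 and 412 CPM in the WT RIPs and 74.8 and 625 CPM in the KO RIPs, the WT value being the lower at both times. Its log2 WT over KO RIP was -0.25 (-0.79 to 0.30) untreated and -0.60 (-0.75 to -0.45) after LPS, above 41.7% and 28.7% of genes, and turned to 0.59 and 0.54 with library totals. Tnip3, with 44.4 and 354 CPM in the WT RIPs and 64.1 and 543 CPM in the KO RIPs, was at -0.56 and -0.62, or 0.28 and 0.52 with library totals. Both genes hold CPEs. The WT RIP therefore did not exceed the KO RIP for either on the scale of 3′-UTR reads, and exceeded it by less than 2-fold on that of library totals. The study set other limits, which include a log2 RPKM fold change over 0.5. It names Tnfaip3 among the mRNAs precipitated with CPEB4, and reports lower Tnfaip3 mRNA in LPS-treated KO cells by RNA-seq. Tnfaip3 had a peak score of 53.0 in the LPS WT RIP, and 0 in the untreated WT RIP and in both KO RIPs.

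Nfkbiz was at 0.34 (-0.34 to 1.03) and 0.13 (-0.14 to 0.40), and Cyld at 0.13 (-0.35 to 0.62) and 0.50 (0.06 to 0.94). Library totals moved Nfkbiz to 1.19 and 1.27 and Cyld to 0.98 and 1.64. Nfkbid was at -0.92 (-2.08 to 0.25) and 0.34 (-0.79 to 1.47), on too few reads to give a direction. Nfkbie was at -1.2 (-2.01 to -0.39) and -1.01 (-1.28 to -0.74), and Tnip1 at -0.78 (-1.73 to 0.18) and -1.15 (-1.49 to -0.81). With library totals, Nfkbie was at -0.36 and 0.13 and Tnip1 at 0.06 and -0.01.

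Differences between genes of 1 comparison do not depend on the scaling. After LPS the input-corrected ratio of Bcl3 exceeded that of Tnip1 by a log2 difference of 2.54 (1.91 to 3.17) and that of Nfkbie by 2.54 (1.94 to 3.14). In untreated cells these differences were 3.04 (1.41 to 4.66) and 4.14 (2.54 to 5.73). Nfkbia exceeded Tnfaip3 by 1.44 (0.37 to 2.51) untreated and 0.72 (0.39 to 1.04) after LPS, and Cyld exceeded Tnfaip3 by 1.04 (0.33 to 1.75) after LPS. Nfkbiz exceeded Tnfaip3 by 1.23 (0.66 to 1.80) after LPS. These pairs were chosen after the values were seen. Across the 10 genes after LPS, the Spearman correlation of the input-corrected ratio with CPEs per kilobase was 0.53 and with G and C content 0.12, where all genes gave -0.43 with G and C content. For CPEs per kilobase no value over all genes was computed.

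**Figure D5:**
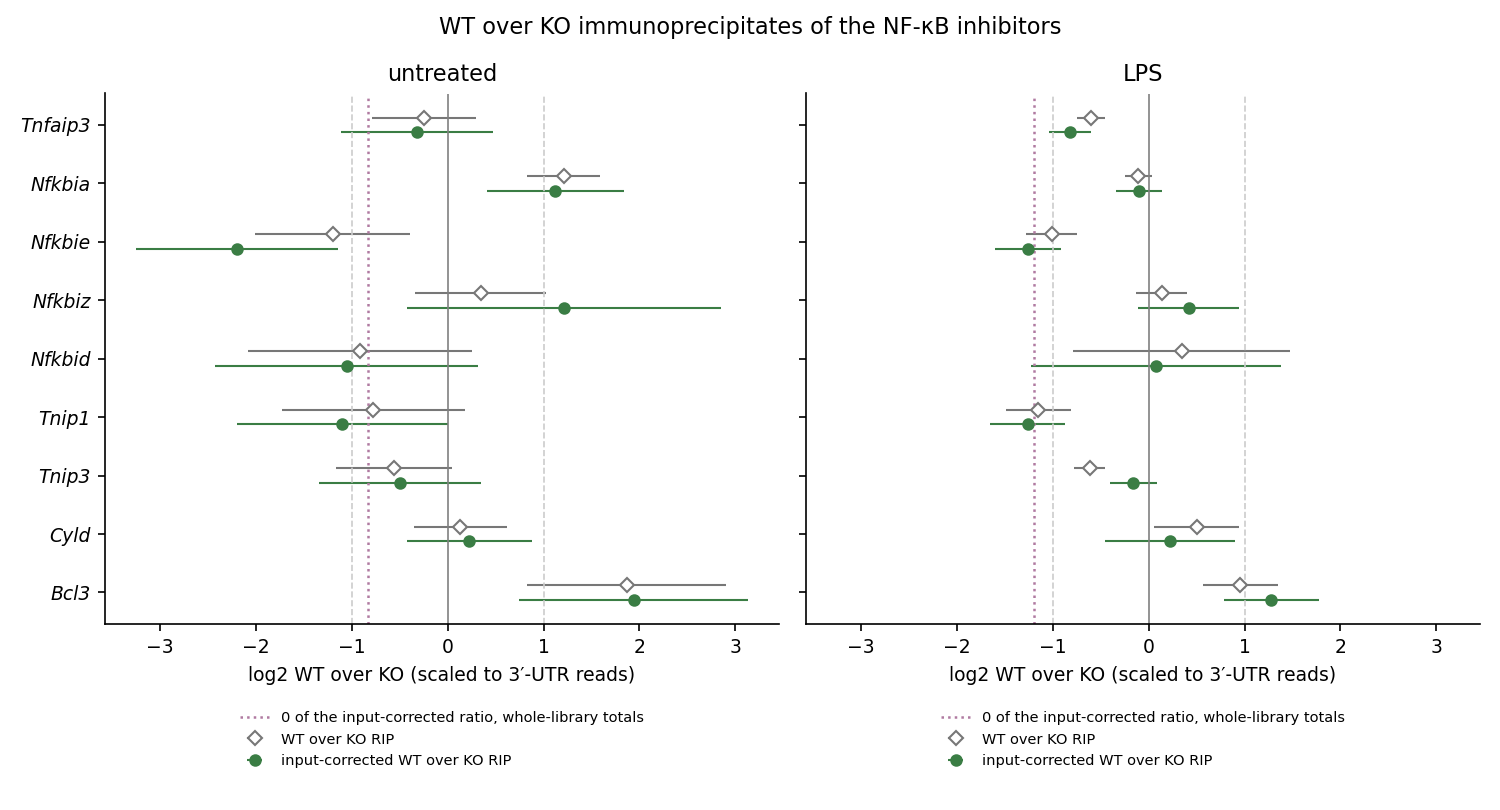
Log2 ratio of WT over KO RIP for 9 genes, in untreated (left) and LPS-treated (right) macrophages, scaled to 3′-UTR reads; grey diamonds are the RIP ratio, green circles the same ratio divided by the WT over KO Input ratio, bars are 95% counting intervals, dashed lines mark 2-fold, and the dotted line marks where 0 would lie for the green circles with whole-library totals. Bcl3 lies farthest right in both panels, and after LPS Nfkbie and Tnip1 lie farthest left, close to the dotted line.

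The LPS change of the RIPs followed that of the Inputs for most of the genes. In the WT RIPs 6 of 9 were higher and 0 lower, against 12.1% and 21.9% of 8901 genes, and in the KO RIPs 7 were higher and 1 lower, against 14.1% and 21.7% of 7227. The gene lower in KO was Nfkbid, at -1.07 (-2.44 to 0.31) on 8 and 7 reads. The gene that fell out of the WT count was Nfkbia, at 0.99, just inside the limit. With library totals or TMM, 7 were higher and 0 lower in both genotypes. Tnip3 and Tnfaip3 made the largest changes, 2.98 and 2.67 in WT and 3.04 and 3.02 in KO. Bcl3 was at 1.14 (0.83 to 1.46) in WT and 2.06 (0.99 to 3.12) in KO, and Cyld at -0.29 and -0.65.

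Among the other pathway genes, the WT over KO RIP ratio after LPS was more than 2-fold higher for 0 of 5 subunit, 0 of 3 IKK, 0 of 12 upstream and 0 of 11 ubiquitin genes with enough reads, and lower for 2, 0, 1 and 2 of them. In untreated cells it was higher for 0 of 4, 0 of 3, 1 of 12 and 1 of 11, and lower for 0, 0, 3 and 1. Of the 6 stimulation genes, 3 were higher after LPS. Over all genes, 9.71% were higher and 17.5% lower after LPS, and 9.60% and 14.2% in untreated cells. Corrected for the Inputs, the LPS ratio was higher for 0 of 5 subunit and 1 of 3 IKK genes. It was higher for 0 of 12 upstream, 0 of 11 ubiquitin and 1 of 6 stimulation genes. In the same order, 2, 0, 4, 1 and 0 genes were lower. Over all genes the corrected ratio was higher for 11.6% and lower for 20.9%. These signs move with the same scaling as those of the inhibitors.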

How the data were processed

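The deposited tables held read counts per 3′-UTR for 8 libraries of mouse BMDMs, 1 per group. Per the study's methods, the authors aligned reads to mm10 with Bowtie2 2.2.2, removed duplicates, counted overlaps with Ensembl 3′-UTRs (the strand setting is not given in the sources used here, and the kit does not mark strand), and gave each region the highest score of an overlapping MACS 1.4.2 peak, 0 where none. The deposited RPKM values, counts per kilobase and per library total made by the authors, served only to recover that total. The peak score was used as deposited, as a score, without adjustment for the depth of the libraries. The tables also hold the authors' fold changes and p-values between RIPs, which were not used. Of 31117 regions, 495 had no symbol (0.902% to 1.04% of reads) and were left out.

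Counts were scaled to the 3′-UTR reads of each library. A log2 ratio was computed after adding 1 read, with a 95% interval from the read counts, and called past 2-fold where each pair of libraries held at least 10 reads. No ratio was given where no library exceeded 3 reads. With 1 library per group no p-value was computed. The computation of the ratios was checked on simulated counts with counting error only. That check does not cover PCR copies or the spread between cultures. CPM carries Wilson intervals. PCR reads are not independent molecules, so intervals and floors cover counting error only. The members and the pathway and marker lists were chosen with earlier results of these data known. All 10 members, Cpeb4, the pathway list and, for Tnfaip3, Nfkbia and Nfkbiz, the 3 genes of most similar pattern were named. Alternatives were library totals, TMM (edgeR 4.0.16), median of ratios (DESeq2 1.42.0), 0.5 added reads, other read minimums, a 1.5-fold limit, an interval clear of 0, and the longest region. The study's criteria were also applied, without the peak score and on ratios scaled to 3′-UTR reads. Python 3.11.15, R 4.3.3, scipy 1.17.1 and statsmodels 0.14.6 were used.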

Additional observations from a re-analysis of the deposited data

Results flagged for a closer look

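Of 36 differences of an effect between treatments or genotypes examined for these genes, 4 had a counting interval clear of 0. The WT over KO RIP ratio of Nfkbia differed between LPS and untreated cells by a log2 difference of -1.32 (-1.73 to -0.91). The LPS change of the Nfkbie Inputs differed between WT and KO by -0.75 (-1.46 to -0.04). The WT RIP over Input ratio differed between LPS and untreated cells by -1.69 (-2.19 to -1.19) for Nfkbia and by 0.57 (0.01 to 1.12) for Cyld. Each compares 4 libraries and was not tested over replicates, and the intervals were not corrected for the 36 differences examined.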

How the results depend on the processing

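No paired analysis was possible because each group held 1 library and the shared numbers name flow cell lanes of the same library. Of 137 counts of genes called under an alternative, 117 stayed within 1.5 times the reported count. With library totals the count was 5 for WT over KO RIP after LPS (reported 3) and 7 for the input-corrected ratio after LPS (reported 4), and Nfkbie in the WT over KO RIP after LPS turned from -1.01 to 0.13. TMM gave 2 for the input-corrected ratio after LPS. For WT over KO Input in untreated cells, library totals, TMM, median of ratios and 0.5 added reads each gave 1 (reported 0), in each case Nfkbie. A 1.5-fold limit gave 2 there, 7 and 9 for KO RIP over Input untreated and after LPS (reported 3 and 4), 5 and 6 for WT over KO RIP (reported 3 and 3), and 1 for the difference of the LPS change (reported 0). No read minimum also gave 1 for that difference. A minimum of 50 reads gave 2 for KO RIP over Input after LPS, 0 for WT over KO Input after LPS (reported 1) and 2 for the input-corrected ratio in untreated cells (reported 6). An interval clear of 0 gave 0 and 3 for the last 2. The study's criteria were applied here in both directions, without the peak score and to ratios scaled to 3′-UTR reads. They gave 5 for WT over KO RIP after LPS, 1 higher in WT, which is the direction the study calls, and 4 lower. The study's own fold change is of RPKM, which is per library total. That scale moves each of these log2 ratios up by 1.14, and the criteria were not applied on it. For single genes, 501 of 565 values stayed within the reported counting interval, and the rest moved outside it, 51 of them with library totals besides the Nfkbie value above. Of the 565, 22 had another sign than reported, 17 of them with library totals, and among values called past 2-fold this was the Nfkbie value alone. In the Inputs, 7 genes were called higher after LPS under library totals, TMM and median of ratios in both genotypes. Depth limited Nfkbib, Nfkbid and the untreated values of Nfkbiz and Bcl3 most.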
